A study of Rattus norvegicus with 16 samples.

Results

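The question addressed here was which genes of the hippocampal CA3 field differed 3 h into a time course of oxidative stress, the subject that the series title names. The comparison used 4 of the 16 arrays of the series, the 2 labelled CA3 at T3h and the 2 labelled CA3 at T0, and covered all 15866 probe sets that are not array controls. The arrays were chosen by their titles alone. All RNA came from organotypic hippocampal slice cultures of the rat, slices of brain kept alive in culture, and was hybridised to an Affymetrix rat expression array after a labelling procedure with repeated rounds of amplification. No genotype, strain, age or sex is given for either group. The oxidant, its dose, and whether T0 was an untreated slice or the moment of exposure are given by none of the sources used here, so the groups are called 3 h and T0 throughout. Replicates are labelled biological without a statement that they came from separate cultures or animals, and p-values therefore measure only the spread between these samples. The other groups used as context were CA3 at 30 min, CA3 at 12 h and CA1 at 3 h, with CA1 at T0 as its reference, each with 2 arrays.

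CA3 is the hippocampal field whose pyramidal neurons receive the mossy fibres of the dentate gyrus and project to CA1. Oxidative stress is known to set off several transcriptional programmes in neural tissue: the integrated stress response, in which phosphorylation of a translation factor favours the transcription factor ATF4 and its targets; the antioxidant response driven by NRF2; and the immediate early genes, which are transcribed within minutes of a stimulus without new protein. Slice cultures also hold glia and dividing cells, so mRNA of all of these is measured together. In such bulk RNA, fewer cells of a type and less RNA per cell cannot be told apart.

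No gene passed the test. With limma on the 8 CA3 arrays, 0 of 15866 probe sets had an adjusted p under 0.05 (0%, smallest adjusted p 0.881), and 713 had an unadjusted p under 0.05, 230 of them higher and 483 lower at 3 h, where 793 would be expected by chance alone. Which direction held more of them depended on the setting: without the second 3 h array 648 were higher and 406 lower, and with the GAPDH 3' minus 5' difference as a covariate 592 were higher and 596 lower. Among 2 against 2 arrays the smallest p that an exact permutation test allows is 0.333. The median moderated standard error of a gene was 0.28 on the log2 scale. The results below are therefore values of single arrays, differences with their moderated standard errors, and counts of genes whose arrays did not overlap between the groups. Over all 10411 genes, each represented by 1 probe set, both 3 h arrays lay above both T0 arrays for 16% and below both for 16.4%. With a size of at least 1 log2 unit (a doubling) added, the shares were 0.519% higher (54 genes) and 1.72% lower (179 genes). The median difference over all genes was 0.02.

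Both groups hold an array that stood apart. On the second 3 h array the GAPDH control probe sets gave a 3' minus 5' difference of 3.93, against 1.63 on the first 3 h array and 1.93 and 2.62 at T0; over all 16 arrays the range was 1.29 to 3.93. This difference is a common measure of RNA integrity and of the length of amplified RNA. The second T0 array gave high globin signals. The probe set annotated to Hbb alone, picked after its values were seen, read 5.54 and 5.33 at 3 h, against 5.0 and 6.73 at T0. The arrays of a group also differed in cell type markers. Snap25, a presynaptic membrane protein of neurons, read 7.74 and 10.03 at 3 h, against 10.57 and 7.04 at T0. The 15 general neuron markers averaged 6.72 and 8.19 at 3 h, against 7.94 and 6.74 at T0, so that 1 array of each group was rich and 1 poor in neuronal mRNA. Log2 values of replicates correlated at 0.9298 between the 3 h arrays, against 0.9545 between the T0 arrays.

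The labelled field could be checked only in part. Of 11 CA3 pyramidal neuron markers, 6 were measured, and their mean log2 level was 5.54 and 6.53 at 3 h, against 5.92 and 5.39 at T0. Grik4, a kainate receptor subunit, read 5.96 and 7.18 at 3 h, against 6.29 and 5.27 at T0, and at T0 it averaged 5.78 in CA3 against 5.41 in CA1. Bok, a BCL2 family protein used as a CA3 marker, averaged 7.54 in CA3 at T0 and 7.54 in CA1 at T0. Bok alone thus did not set the fields apart at T0. Over the 6 markers the mean level at T0 was 5.92 and 5.39 in CA3, against 5.23 and 5.07 in CA1. Both CA3 arrays at T0 therefore lay above both CA1 arrays for this mean. No CA3 marker lay apart between 3 h and T0 (0 of 6 in either direction), where 16% of all genes lay higher and 16.4% lower.

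The genes with the largest moderated t among those higher at 3 h were led by stress-response genes. Chac1, an ATF4 target whose enzyme degrades glutathione, read 9.05 and 9.0 at 3 h, against 7.25 and 7.37 at T0, a difference of 1.72 ± 0.21 (moderated SE, n = 2 arrays a group, limma adjusted p = 0.881). Its 4 values fell into separate pairs, with little spread within each, which a choice by t favours. Trib3, a pseudokinase induced by ATF4 and CHOP, read 7.61 and 6.93 at 3 h, against 6.21 and 6.21 at T0, a difference of 1.06 ± 0.26; its other probe sets gave 0.57 and 1.20. Ddit3, which encodes CHOP, read 8.43 and 9.30 at 3 h, against 6.84 and 7.26 at T0, a difference of 1.81 ± 0.35. Atf3, a stress-induced bZIP factor, read 9.69 and 9.39 at 3 h, against 6.11 and 7.63 at T0, a difference of 2.67 ± 0.56.

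The promoters of Chac1 and Trib3 are shown because both hold the composite element through which ATF4 and C/EBP factors act on stress genes. The sequences are 300 bases each, 250 before to 50 after a RefSeq start site, from the rat assembly GRCr8, written 5' to 3' on the strand of the gene. Capitals mark the match to TGATGNAA, where N is any base, searched on both strands; in both genes it reads on the opposite strand.
Chac1 (chr3:126795881-126796180, plus strand): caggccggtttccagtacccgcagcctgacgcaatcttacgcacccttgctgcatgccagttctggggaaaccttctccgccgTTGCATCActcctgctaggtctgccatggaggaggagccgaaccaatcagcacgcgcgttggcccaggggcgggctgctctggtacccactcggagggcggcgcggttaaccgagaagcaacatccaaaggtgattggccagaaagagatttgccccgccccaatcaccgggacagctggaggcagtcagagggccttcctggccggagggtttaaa
Trib3 (chr3:161275484-161275783, minus strand): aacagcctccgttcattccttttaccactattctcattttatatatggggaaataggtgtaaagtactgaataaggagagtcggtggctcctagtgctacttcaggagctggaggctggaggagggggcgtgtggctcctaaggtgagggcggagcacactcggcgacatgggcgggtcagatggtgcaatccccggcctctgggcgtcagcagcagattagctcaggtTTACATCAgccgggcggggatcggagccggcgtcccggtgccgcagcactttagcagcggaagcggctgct
The match begins at base -167 from the start site in Chac1 and at -21 in Trib3. The element occurred in 3 of 14 promoters of the leading higher genes found in the table (21.4%; the other is Gadd45g), in 10 of 32 integrated stress response genes (31.2%) and in 3.82% of the 27457 genes of the table, taking the first window listed for each gene. The CRE, TGACGTCA, occurred in 0 of the 14, against 1.91% of all genes, and the AP-1 element, TGANTCA, in 4 of the 14 (28.6%; Aox1, Ddit3, Srxn1 and Zfand2a), against 7.33%. These matches describe the letters of the windows and say nothing of binding in these slices.

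The integrated stress response list had a median near that of all genes. Of 35 measured members, 9 lay higher and 3 lower without overlap, against 16% and 16.4% of all genes. The median difference was 0.10 against 0.02 over all genes, and 0 passed the test. With the first 3 h array alone, 13 lay above and 11 below both T0 arrays, where 37.9% of all genes lay above and 32.7% below. Against the first T0 array alone, 16 members lay higher and 7 lower, where the shares of all genes were 30.9% and 31.5%. Atf4 itself read 10.19 and 10.12 at 3 h, against 9.32 and 9.49 at T0, a difference of 0.75 ± 0.33. Cebpb, a bZIP partner of these factors, read 6.06 and 5.15 at 3 h, against 3.88 and 5.16 at T0, so its arrays overlapped. Slc7a5, a large neutral amino acid transporter and ATF4 target, was higher by 0.64 ± 0.23. Asns, asparagine synthetase and a classical ATF4 target, read 6.59 and 7.73 at 3 h, against 7.68 and 7.79 at T0, a difference of -0.57 ± 0.51. The 3 members higher by at least 1 were Ddit3, Chac1 and Trib3.

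Chaperones of the endoplasmic reticulum, which the unfolded protein response induces, had a median of -0.16. Of 23 measured, 0 lay higher and 9 lower without overlap, where the shares of all genes were 16% and 16.4%. Hspa5, the main chaperone of that compartment, read 10.08 and 10.71 at 3 h, against 9.49 and 10.19 at T0, with overlapping arrays. Pdia6, a disulfide isomerase, read 9.82 and 9.35 at 3 h, against 10.15 and 10.29 at T0, a difference of -0.63 ± 0.25. Xbp1, the transcription factor of the IRE1 branch, read 8.95 and 8.68 at 3 h, against 9.03 and 10.16 at T0, a difference of -0.78 ± 0.37. Edem1, which marks misfolded glycoproteins for degradation, had the lowest value of the list, -1.04 ± 0.71. After cyclic loess scaling the median of this list was 0.018, so its direction depends on how the arrays are scaled.

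Gadd45b and Gadd45g, small stress-induced proteins that act on MAP kinase signalling and DNA demethylation, were among the highest differences of the comparison. Gadd45b read 8.48 and 8.41 at 3 h, against 5.62 and 6.60 at T0, a difference of 2.34 ± 0.38. Gadd45g read 8.12 and 9.41 at 3 h, against 5.29 and 6.46 at T0, a difference of 2.89 ± 0.52, the largest of all genes in that direction. The third member, Gadd45a, a p53 target, read 4.86 and 5.92 at 3 h, against 4.91 and 5.54 at T0, so its arrays overlapped. The p53 target list had a median of -0.17 over 11 genes. Of these, 1 lay higher and 2 lower without overlap, against 16% and 16.4% of all genes. Ccng1, cyclin G1 and a p53 target, read 9.85 and 9.39 at 3 h, against 10.31 and 10.35 at T0.

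**Figure D1:**
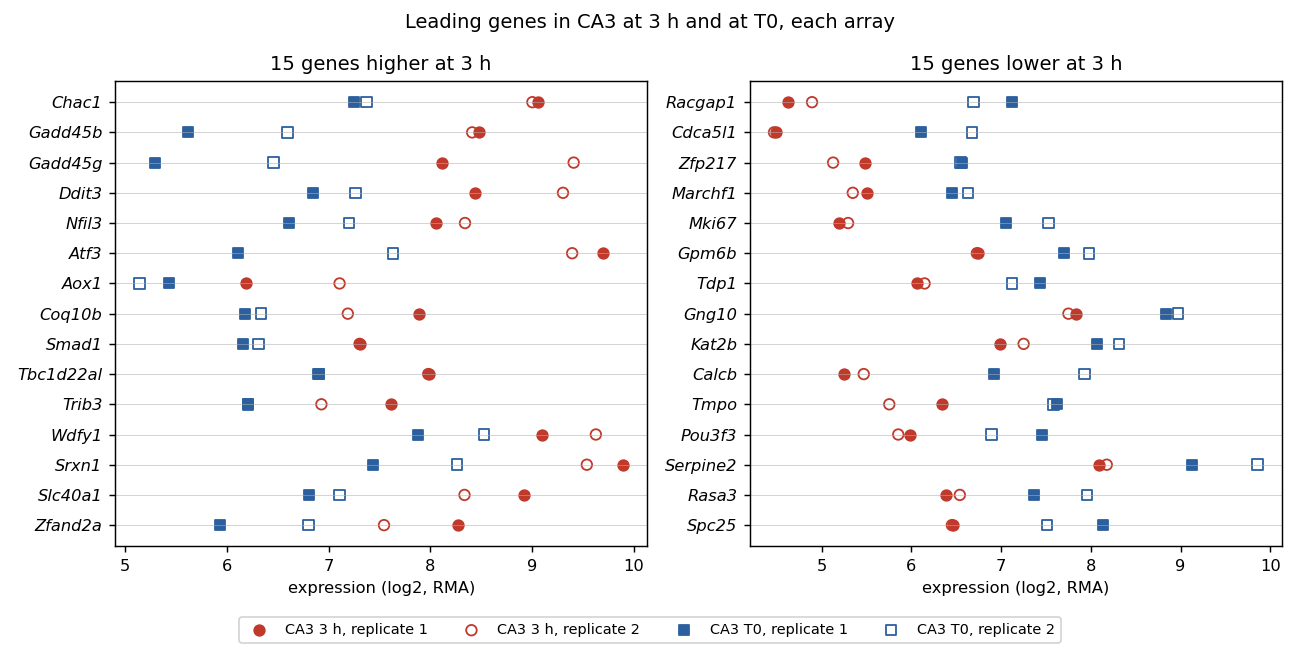
Log2 RMA expression of the 15 genes with the largest moderated t among those higher (left) and lower (right) at 3 h in CA3, with 3 h arrays as red circles and T0 arrays as blue squares (filled, replicate 1; open, replicate 2). The genes were chosen because the colours do not overlap and differ by at least 1, so the separation is a property of the choice. Choosing by t also favours a small distance within each pair of arrays. That distance is small for Chac1 and Racgap1 and over 1 between the T0 arrays of Atf3 (6.11 and 7.63).

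Genes of the antioxidant response were higher for a few members only. Of 22 measured NRF2 targets, 6 lay higher and 2 lower without overlap, against 16% and 16.4% of all genes, with a median of 0.20. Srxn1, sulfiredoxin, which repairs oxidised peroxiredoxins, read 9.89 and 9.54 at 3 h, against 7.43 and 8.26 at T0, a difference of 1.87 ± 0.48. Hmox1, haem oxygenase 1, read 12.09 and 11.21 at 3 h, against 9.85 and 10.19 at T0, a difference of 1.63 ± 0.49. Osgin1, an oxidative stress-induced growth inhibitor, was higher by 0.90 ± 0.33, and Sqstm1, the autophagy receptor p62, by 0.79 ± 0.40, though the other probe sets of Sqstm1 gave 0.35, -0.0058 and -0.18. Aox1, aldehyde oxidase, read 6.19 and 7.11 at 3 h, against 5.43 and 5.14 at T0. By contrast Nqo1, a quinone reductase and textbook NRF2 target, read 9.15 and 10.39 at 3 h, against 9.27 and 10.40 at T0, a difference of -0.06 ± 0.51. Txnrd1, thioredoxin reductase, differed by 0.55 ± 0.39 (1.08 for its other probe set) and Txn1, thioredoxin, by -0.65 ± 0.53. Slc40a1, ferroportin, the cell's iron exporter, read 8.92 and 8.34 at 3 h, against 6.81 and 7.11 at T0, a difference of 1.67 ± 0.44; its other probe sets gave 1.44 and 2.44.

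Enzymes that remove superoxide and peroxide were not higher as a list. Of 20 measured, 1 lay higher and 6 lower without overlap, against 16% and 16.4% of all genes, with a median of -0.42. The 2 arrays differed here, at -0.01 for the first and -0.79 for the second 3 h array against the T0 mean. Prdx3, the mitochondrial peroxiredoxin, read 7.64 and 7.43 at 3 h, against 8.45 and 8.30 at T0, a difference of -0.84 ± 0.20. Prdx5 read 8.74 and 8.12 at 3 h, against 8.97 and 9.38 at T0, a difference of -0.74 ± 0.26. Prdx6, the peroxiredoxin that acts with glutathione, was the member that lay higher, by 0.51 ± 0.18. Sod1, cytosolic superoxide dismutase, differed by -0.17 ± 0.24 and Cat, catalase, by -0.06 ± 0.48. Heat shock genes had a median of -0.07 over 18 members, with 1 higher and 4 lower without overlap. Dnajb1, a cochaperone of the heat shock response, differed by 0.17 ± 0.20 (-0.19 for its other probe set). Zfand2a, an arsenite-inducible protein of the proteotoxic stress response, read 8.27 and 7.54 at 3 h, against 5.93 and 6.80 at T0, a difference of 1.54 ± 0.41.

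Immediate early genes were often higher at 3 h. Of 39 measured, 22 lay above both T0 arrays and 1 below, against 16% and 16.4% of all genes. Their median was 0.81, and 11 were higher by at least 1 without overlap, against 0.519% of all genes. None passed the test, and 7 had an unadjusted p under 0.05 and were higher, against 1.27% of all genes. The median was 0.54 for the first 3 h array and 0.87 for the second. Against the first T0 array alone 33 of the 39 lay higher, as did 30.9% of all genes. Fos, the founding member, read 10.05 and 10.93 at 3 h, against 7.83 and 9.84 at T0, a difference of 1.65 ± 0.70, with a wide gap between the T0 arrays and 0.24 for its dimmer probe set. Fosb read 6.47 and 7.86 at 3 h, against 5.20 and 5.05 at T0, a difference of 2.04 ± 0.80. Jun read 10.86 and 10.63 at 3 h, against 9.69 and 9.94 at T0, a difference of 0.93 ± 0.19, and its other probe sets gave 1.35 and 1.20. Dusp1, a phosphatase that ends MAP kinase signals, read 7.91 and 8.80 at 3 h, against 5.32 and 6.82 at T0, a difference of 2.28 ± 0.74; its other probe set, with a low signal, gave 0.05. Csrnp1, a nuclear factor of this class, was higher by 1.33 ± 0.47, and Zfp36, which destabilises cytokine mRNAs, by 0.83 ± 0.27. Egr1 read 7.36 and 10.69 at 3 h, against 6.85 and 10.02 at T0, so that the second array of each group was high. The 1 member below both T0 arrays was Ccn2, a matricellular protein, described with the matrix genes.

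Several early genes with roles in neurons were highest on the 3 h array rich in neuron markers. Homer1, a postsynaptic scaffold, read 8.23 and 10.01 at 3 h, against 7.91 and 5.74 at T0, a difference of 2.30 ± 1.33; of its other probe sets, 3 lay between -0.07 and 0.27 and 1 gave 2.85. Bdnf, a neurotrophin, read 5.80 and 7.16 at 3 h, against 4.83 and 4.29 at T0, a difference of 1.92 ± 1.45 (0.05 for its other probe set). Plk2, a polo-like kinase induced by synaptic activity, read 6.90 and 8.74 at 3 h, against 5.60 and 5.98 at T0, a difference of 2.03 ± 1.14. Nr4a3, an orphan nuclear receptor, read 6.22 and 8.23 at 3 h, against 5.69 and 4.34 at T0 (0.25 for its other probe set), and Arc, which regulates AMPA receptor uptake, 6.69 and 8.14 at 3 h, against 6.22 and 6.10 at T0. In all 5 the second 3 h array was the higher of its pair, as it was for Fos, Fosb, Dusp1 and Egr1 above, though not for Jun. Both 3 h arrays lay above both T0 arrays in all 5, which the choice of genes without overlap favours. The part of neuronal content in these differences was not tested. Arrdc3, an arrestin-domain protein, was not higher on the second 3 h array, with 7.97 and 7.81 at 3 h, against 5.61 and 6.40 at T0.

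The remaining genes with a large t were Nfil3, a bZIP repressor (1.29 ± 0.26), Coq10b, a coenzyme Q binding protein (1.28 ± 0.30), Wdfy1, a phosphoinositide-binding adaptor (1.16 ± 0.30), Tbc1d22al (1.08 ± 0.26) and Smad1, a transducer of BMP signals (1.07 ± 0.25). Smad1 read 7.30 and 7.30 at 3 h, against 6.15 and 6.31 at T0. Coq10b read 7.89 and 7.19 at 3 h, against 6.18 and 6.34 at T0. Nfil3 read 8.06 and 8.34 at 3 h, against 6.62 and 7.20 at T0. The other probe sets of Wdfy1 and Smad1 gave 0.37 and 0.40, less than those used. For 4 of these 5 genes the gap between the groups exceeded the gap within either of them, which the choice without overlap and by t favours. The exception was Wdfy1, with 9.10 and 9.63 at 3 h, against 7.88 and 8.53 at T0.

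Genes of cell division, on a list chosen with earlier results of these data known, were lower at 3 h on both arrays. All 24 measured mitosis genes lay below both T0 arrays at 3 h, where 16.4% of all genes did. Of the 24, 15 did so by at least 1, against 1.72% of all genes. Their median was -1.23, with -0.97 for the first and -1.45 for the second 3 h array. None passed the test, though 17 of the 24 had an unadjusted p under 0.05 and were lower, against 3.63% of all genes. Racgap1, which directs cytokinesis at the spindle midzone, read 4.62 and 4.89 at 3 h, against 7.12 and 6.69 at T0, a difference of -2.15 ± 0.25. Mki67, the proliferation antigen, read 5.19 and 5.30 at 3 h, against 7.06 and 7.53 at T0, a difference of -2.05 ± 0.32. Top2a, topoisomerase II alpha, read 6.80 and 5.94 at 3 h, against 8.34 and 7.92 at T0, a difference of -1.76 ± 0.36; its other probe set, with a low signal, gave -0.36. Ccnb2, a mitotic cyclin, read 5.82 and 5.24 at 3 h, against 7.42 and 7.05 at T0, a difference of -1.71 ± 0.50. Cdk1, its kinase partner, read 7.14 and 6.24 at 3 h, against 8.12 and 7.78 at T0, a difference of -1.26 ± 0.67. The kinesin Kif15, the kinase Melk, the Cdk-binding protein Cks2 and the kinetochore protein Spc25 were lower by values between -1.63 and -1.37. The smallest differences were those of Birc5, survivin (-0.35 ± 0.18), and Mad2l1, a spindle checkpoint protein (-0.28 ± 0.20), both measured at log2 levels near 5. Other, dimmer probe sets gave -0.30 to -0.0002 for Cdc20, -0.30 for Hmmr, 0.13 for Kif2c and -1.98 for Ccnb1.

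The promoters of 3 of these genes are shown because they hold the cell cycle homology region (CHR), the element through which the DREAM and MuvB complexes act on genes of late cell cycle. Windows, build and direction are as above, and capitals mark TTTGAA, or its complement where it reads on the opposite strand.
Ccnb2 (chr8:79981609-79981908, minus strand): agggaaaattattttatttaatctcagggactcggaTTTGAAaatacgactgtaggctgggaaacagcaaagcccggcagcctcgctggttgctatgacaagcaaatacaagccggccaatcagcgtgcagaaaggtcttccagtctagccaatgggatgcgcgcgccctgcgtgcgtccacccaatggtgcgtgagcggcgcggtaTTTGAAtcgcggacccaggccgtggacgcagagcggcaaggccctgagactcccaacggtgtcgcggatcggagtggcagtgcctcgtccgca
Cdk1 (chr20:19265043-19265342, plus strand): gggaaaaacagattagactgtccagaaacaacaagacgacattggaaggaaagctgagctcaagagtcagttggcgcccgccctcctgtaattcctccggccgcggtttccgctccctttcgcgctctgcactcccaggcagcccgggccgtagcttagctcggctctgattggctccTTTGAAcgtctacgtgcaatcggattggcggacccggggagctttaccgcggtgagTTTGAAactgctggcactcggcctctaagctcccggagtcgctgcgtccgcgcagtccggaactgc
Top2a (chr10:84473044-84473343, minus strand): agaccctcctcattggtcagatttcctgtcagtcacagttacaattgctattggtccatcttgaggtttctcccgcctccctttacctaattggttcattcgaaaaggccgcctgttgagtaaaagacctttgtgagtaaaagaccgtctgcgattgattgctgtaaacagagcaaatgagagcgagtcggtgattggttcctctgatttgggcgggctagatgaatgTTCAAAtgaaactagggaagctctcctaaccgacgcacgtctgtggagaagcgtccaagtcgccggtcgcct
The matches begin at bases -214 and -43 in Ccnb2, at -72 and -16 in Cdk1 and at -22, on the opposite strand, in Top2a. TTTGAA occurred in 15 of 20 promoters of mitosis genes found in the table (75%), in 3 of 11 promoters of the leading lower genes (27.3%) and in 0 of 14 of the leading higher genes, against 18.1% of all genes. Of the other lists with low medians, DNA replication genes held it in 1 of 21 promoters (4.76%) and microglia markers in 4 of 11 (36.4%). Of the mitosis genes named above, Mki67, Kif15, Cks2, Spc25, Birc5, Mad2l1, Cdc20 and Hmmr also hold it. Birc5 and Mad2l1, which had the smallest differences of the list, are thus among its holders.

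Genes of DNA replication were lower too, by less. Of 22 measured, 0 lay higher and 16 lower without overlap, against 16% and 16.4% of all genes. The median was -0.70, with array values of -0.71 and -0.91. Mcm2, a subunit of the replicative helicase, read 6.65 and 6.14 at 3 h, against 8.10 and 7.59 at T0, a difference of -1.45 ± 0.62. Rrm1, the large subunit of ribonucleotide reductase, read 7.47 and 7.23 at 3 h, against 8.25 and 8.62 at T0, a difference of -1.09 ± 0.28. Dut, dUTPase, read 6.0 and 7.13 at 3 h, against 7.73 and 8.15 at T0, a difference of -1.37 ± 0.42. Nes, nestin, a filament of neural progenitors and reactive astrocytes, read 6.91 and 6.47 at 3 h, against 7.49 and 8.10 at T0, a difference of -1.11 ± 0.28. The 6 measured progenitor markers did not share this, with 0 higher and 2 lower without overlap and a median of 0.19. Other nuclear genes with a large t on the lower side were Tmpo, a lamina-associated protein (6.34 and 5.75 at 3 h, against 7.63 and 7.59 at T0, with 0.09 for its other probe set), the zinc finger factor Zfp217 (-1.25 ± 0.19), the DNA repair enzyme Tdp1 (-1.18 ± 0.20), the acetyltransferase Kat2b (-1.07 ± 0.19), the POU factor Pou3f3 (-1.25 ± 0.23) and Cdca5l1 (-1.91 ± 0.27).

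**Figure D2:**
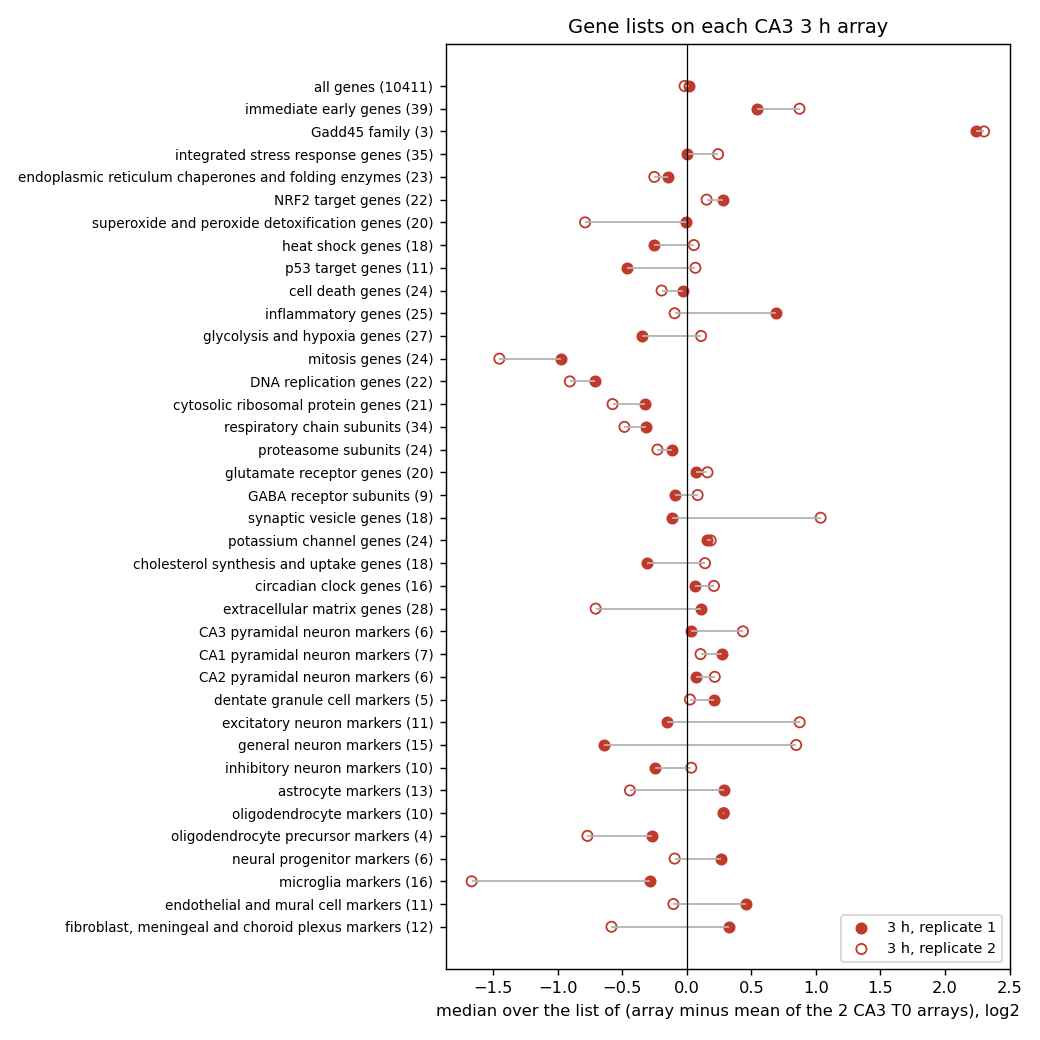
Median log2 difference of each gene list from the T0 mean, shown for each of the 2 CA3 arrays at 3 h, with the number of genes in brackets and all genes at the top. Mitosis, DNA replication and immediate early genes keep one side on both arrays, while the neuron markers (-0.64 and 0.85), synaptic vesicle genes (-0.11 and 1.04) and inflammatory genes (0.69 and -0.10) lie on opposite sides.

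Microglia markers were lower, chiefly on the second 3 h array. Of 16 measured, 0 lay higher and 11 lower without overlap, against 16% and 16.4% of all genes, with a median of -0.93. The first 3 h array gave -0.28 and the second -1.67. The mean level of the markers was 8.52 and 7.17 at 3 h, against 8.84 and 8.63 at T0. P2ry12, a purinergic receptor of resting microglia, read 6.30 and 4.30 at 3 h, against 7.80 and 6.40 at T0, a difference of -1.80 ± 1.17. The other probe sets of P2ry12, Aif1 and Ptprc, all at lower levels, gave -0.26, 0.15 and -0.13. C1qa, C1qb and C1qc, the chains of the complement protein that microglia secrete, differed by -1.01 ± 0.67, -1.50 ± 0.84 and -1.07 ± 0.64. Aif1, the protein IBA1, read 6.90 and 5.45 at 3 h, against 7.55 and 7.53 at T0, and Ptprc, CD45, 5.45 and 4.46 at 3 h, against 6.27 and 6.14 at T0. Both defining markers Cx3cr1, the fractalkine receptor (-0.07 ± 0.33), and Itgam, CD11b (0.16 ± 0.24), differed little, at log2 levels near 5. The macrophage gene Ms4a6a read 5.70 and 4.63 at 3 h, against 7.15 and 7.27 at T0, while its other probe set gave -0.26, and the lectin Cd302 read 5.73 and 3.76 at 3 h, against 6.54 and 6.94 at T0. On the first 3 h array alone 3 markers lay above both T0 arrays. Of the 3 h and T0 arrays, the one with the lowest microglia values is the one with the high GAPDH 3' to 5' difference and the higher neuron markers. The second CA3 array also had the lower marker mean at 30 min (8.74 and 7.17) and at 12 h (7.73 and 6.33). The GAPDH difference of that second array was 2.05 at 30 min and 2.92 at 12 h. The part of RNA integrity, neuronal content or replicate number was not tested. With the GAPDH difference as a covariate the median of the list was -0.54.

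Inflammatory genes split by array. Of 25 measured, 2 lay higher and 0 lower without overlap, against 16% and 16.4% of all genes, with a median of 0.25. The first 3 h array gave 0.69 and the second -0.10. On the first 3 h array alone 20 of the 25 lay above both T0 arrays, as did 37.9% of all genes. Cxcl2, a neutrophil chemokine, read 9.04 and 5.20 at 3 h, against 4.54 and 5.65 at T0, so the difference of 2.02 ± 1.13 rests on 1 array. Ptgs2, cyclooxygenase 2, was low throughout, with 4.48 and 4.13 at 3 h, against 3.59 and 3.41 at T0.

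Matrix and connective tissue genes held the largest lower differences, and these rested largely on the second T0 array. Ccn2, connective tissue growth factor, read 3.88 and 3.97 at 3 h, against 5.46 and 9.09 at T0, a difference of -3.36 ± 1.09. Postn, periostin, read 7.51 and 6.80 at 3 h, against 8.63 and 11.08 at T0, a difference of -2.70 ± 1.36. Fn1, fibronectin, read 7.68 and 7.94 at 3 h, against 9.25 and 10.58 at T0, a difference of -2.11 ± 0.50. In all 3 the T0 array with the high globin signal was the higher one. Both 3 h arrays also lay below the other T0 array, which the choice of genes without overlap favours. Lgals1, galectin 1, read 7.54 and 6.43 at 3 h, against 8.85 and 9.26 at T0. Cyp1b1, a cytochrome P450 enzyme, read 7.74 and 7.59 at 3 h, against 10.39 and 8.93 at T0, here with the first T0 array higher. The matrix list as a whole had a median of -0.19 over 28 genes. Without overlap, 2 lay higher and 3 lower, against 16% and 16.4% of all genes. Sparc, a collagen-binding glycoprotein, differed by -0.85 ± 0.40 and Spp1, osteopontin, by -1.24 ± 1.37. Serpine2, a serine protease inhibitor, read 8.09 and 8.18 at 3 h, against 9.13 and 9.86 at T0, and the proteolipid Gpm6b 6.74 and 6.73 at 3 h, against 7.70 and 7.98 at T0. Calcb, a calcitonin gene-related peptide, read 5.25 and 5.47 at 3 h, against 6.92 and 7.93 at T0, a difference of -2.07 ± 0.37. The signalling genes Marchf1, a ubiquitin ligase (-1.12 ± 0.17), Gng10, a G protein subunit (-1.11 ± 0.19), and Rasa3, a GTPase activating protein (-1.20 ± 0.23), completed the lower group.

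Most neuronal genes overlapped between the groups. None of 11 excitatory neuron markers lay apart in either direction, with a median of 0.28 and array values of -0.15 and 0.87. Of 15 general neuron markers, 1 lay higher and 1 lower, against 16% and 16.4% of all genes. Slc17a7, the vesicular glutamate transporter 1, read 6.31 and 7.96 at 3 h, against 8.54 and 6.04 at T0. Gap43, a growth cone protein, was the marker that lay lower, with 8.91 and 8.85 at 3 h, against 9.69 and 9.63 at T0, a difference of -0.78 ± 0.37, with 0.18 for its other, dim probe set. Cplx2, complexin 2, which clamps vesicle fusion, read 6.24 and 8.48 at 3 h, against 6.12 and 5.48 at T0. Of 20 glutamate receptor genes, 6 lay higher and 0 lower without overlap, with a median of 0.24. A CA3 mean of at least 5 was reached by 12 of the 20. The AMPA receptor subunit Gria1 read 3.88 and 7.75 at 3 h, against 4.93 and 4.48 at T0, and Gria2 read 8.49 and 10.44 at 3 h, against 8.97 and 7.78 at T0, so both overlapped. Grm3, a metabotropic receptor, read 6.82 and 5.78 at 3 h, against 5.53 and 5.30 at T0. Of 24 potassium channel genes, 9 lay higher and 1 lower without overlap, with a median of 0.28. Only 14 of the 24 had a CA3 mean of at least 5. Kcna4, an A-type channel, read 4.14 and 5.20 at 3 h, against 4.04 and 3.73 at T0. Of 9 GABA receptor subunits, 1 lay higher and 2 lower. The inhibitory neuron genes Npy, a neuropeptide, and Reln, reelin, differed by -0.85 ± 0.61 and -1.37 ± 0.77. Reln read 7.96 and 8.29 at 3 h, against 8.46 and 10.53 at T0, with -0.12 for its other, dim probe set.

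Oligodendrocyte markers had a median above that of all genes. Of 10 measured, 7 lay higher and 0 lower without overlap, against 16% and 16.4% of all genes, with a median of 0.28 that was nearly equal on both arrays (0.28 and 0.29). Only 6 of the 10 had a CA3 mean of at least 5. Mog, a myelin surface glycoprotein, read 5.21 and 4.88 at 3 h, against 4.60 and 4.47 at T0. Mbp, myelin basic protein, read 11.55 and 11.43 at 3 h, against 11.34 and 9.87 at T0, a difference of 0.88 ± 0.49 in which the second T0 array stood low. Enpp6, a marker of newly forming oligodendrocytes, differed by 0.65 ± 0.40. Astrocyte markers had a median of 0.04 over 13 genes, with 0 higher and 1 lower; Gfap, the astrocyte filament, read 12.39 and 12.05 at 3 h, against 12.93 and 12.04 at T0, and Slc1a3, the glutamate transporter GLAST, differed by -0.60 ± 0.35.

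Genes of protein synthesis and respiration had medians below 0. Of 21 cytosolic ribosomal protein genes, 0 lay higher and 9 lower without overlap, against 16% and 16.4% of all genes, with a median of -0.41. Rpl14 read 8.77 and 8.50 at 3 h, against 9.39 and 9.72 at T0 (0.17 for its other probe set), while Rpl30 differed by 0.34 ± 0.35. Of 34 respiratory chain subunits, 0 lay higher and 10 lower, with a median of -0.36. Uqcrfs1, the Rieske protein of complex III, read 6.41 and 6.25 at 3 h, against 7.72 and 7.27 at T0, a difference of -1.16 ± 0.55. Cox4i1, a subunit of complex IV, read 9.73 and 9.60 at 3 h, against 10.54 and 10.16 at T0. Without the first T0 array the median of the respiratory list was -0.10, and against that array alone 28 of the 34 lay lower, as did 31.5% of all genes. After cyclic loess scaling the ribosomal median was -0.13, so the size of both depends on the setting. Glycolysis and hypoxia genes were mixed, with 4 higher and 6 lower of 27. Slc2a1, the glucose transporter GLUT1, read 8.20 and 8.35 at 3 h, against 7.09 and 7.51 at T0, a difference of 0.97 ± 0.25, whereas Eno1, enolase, read 9.24 and 9.61 at 3 h, against 10.59 and 10.13 at T0, a difference of -0.93 ± 0.35. Of 16 circadian clock genes, 7 lay higher and 1 lower, with a median of 0.09; Clock read 7.37 and 7.07 at 3 h, against 6.44 and 6.22 at T0 (0.12 and 0.29 for its other probe sets), and Bhlhe41, a repressor of the clock, was the lower one (-0.56 ± 0.27). Of 18 genes of cholesterol synthesis and uptake, 3 lay higher and 3 lower; Insig1, a sterol sensor, differed by 1.22 ± 0.62.

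The other CA3 times share the T0 arrays with the 3 h comparison, so their values are given side by side and not as separate support. Chac1 differed from T0 by 0.48 ± 0.21 at 30 min, by 1.72 ± 0.21 at 3 h and by 3.41 ± 0.21 at 12 h, where it was the 1 probe set of 15866 that passed the test (0.0063%, limma adjusted p = 0.0279). Gadd45b followed the same order, with 0.82, 2.34 and 3.17 at 30 min, 3 h and 12 h, as did Gadd45g, with 1.19, 2.89 and 3.61, and Plk2, with 0.97, 2.03 and 4.18. Slc40a1 had 0.03, 1.67 and -0.56 and Hmox1 -0.29, 1.63 and 0.37, so both stood highest at 3 h. Dusp1 was as high at 30 min as at 3 h, with 2.44, 2.28 and 1.45. Racgap1 stood at -1.41, -2.15 and -2.25, and the median of the mitosis genes at -0.66, -1.23 and -1.47. Microglia markers had medians of -0.87, -0.93 and -1.87. Pou3f3 was low at 3 h but stood at -0.34 and -0.29 at 30 min and 12 h.

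**Figure D3:**
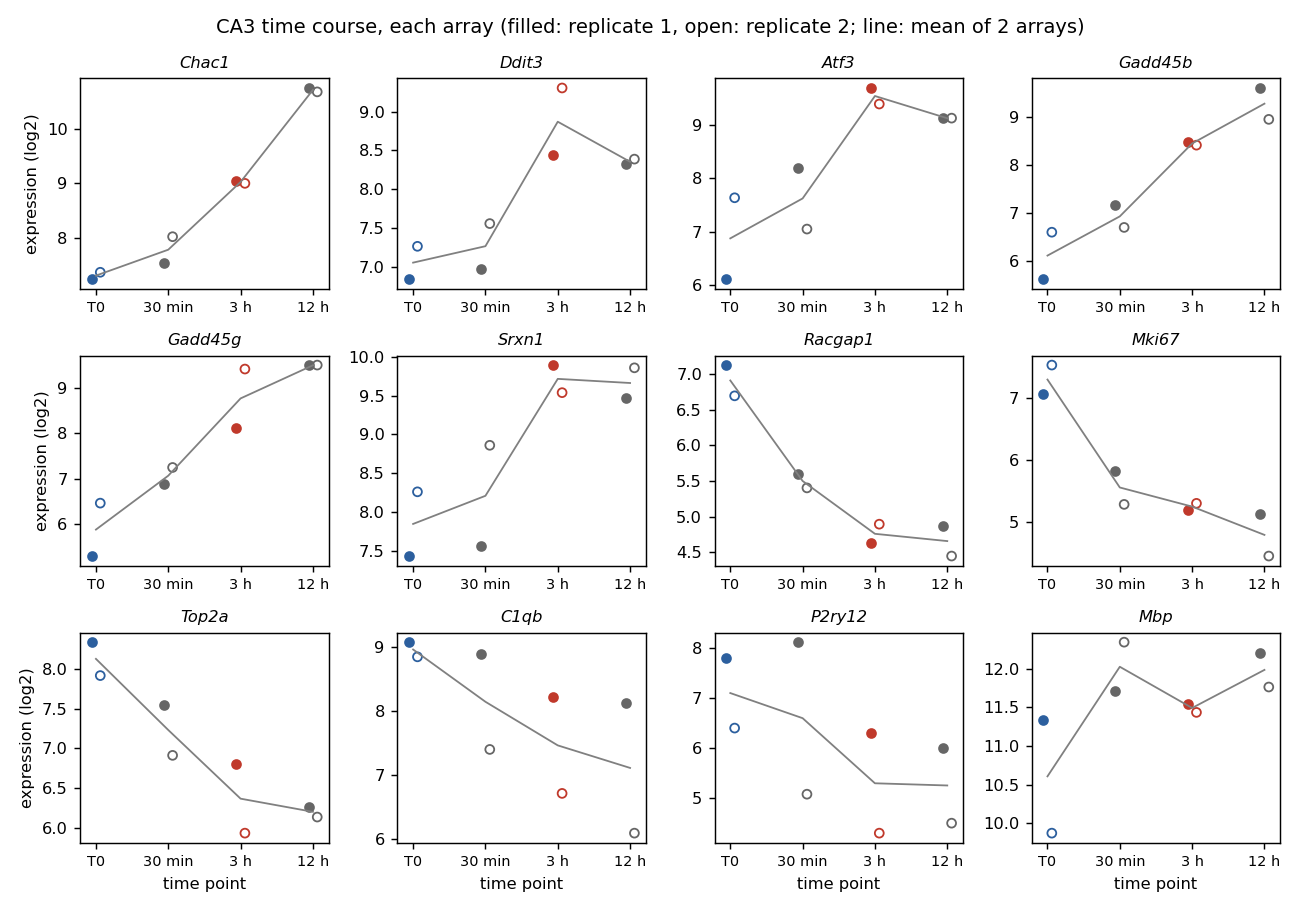
Log2 expression in CA3 of 12 named genes at T0, 30 min, 3 h and 12 h (evenly spaced on the horizontal axis), with each array as a point (filled, replicate 1; open, replicate 2; T0 blue, 3 h red) and the group mean as a line. The means of Chac1, Gadd45b and Gadd45g stand higher at each later time in turn, those of Atf3 and Ddit3 are highest at 3 h, and both arrays of Racgap1 and Mki67 are below both T0 arrays at every later time.

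The same comparison in CA1 used other arrays, though arrays of both fields with equal time and replicate number deviated together (correlation of deviations over probe sets 0.58 at 3 h and 0.568 at T0). The difference between the fields was therefore tested on differences within such pairs. No probe set passed (0 of 15866, smallest adjusted p 1), and 281 had an unadjusted p under 0.05, where 793 would be expected by chance alone. With 1 probe set per gene, 200 of 10411 genes had an unadjusted p under 0.05. Chac1 was higher by 1.27 in CA1, and its CA3 difference exceeded this by 0.45 ± 0.36. Gadd45b was higher by 2.18 in CA1, a difference between the fields of 0.16 ± 0.39, and Atf3 by 2.15, a difference of 0.52 ± 0.51. Mki67 stood at -2.53 in CA1 and Racgap1 at -2.38, which differ from the CA3 values by 0.48 ± 0.35 and 0.23 ± 0.49. The mitosis genes had a median of -1.23 in CA3 and -1.54 in CA1, and 2 of the 24, Pimreg and Spc25, had an unadjusted p under 0.05 for the difference. Microglia markers had medians of -0.93 in CA3 and -0.49 in CA1, with 0 of 16 below that level. Immediate early genes had medians of 0.81 in CA3 and 0.36 in CA1, with 5 of 39 below it (Fos, Dusp1, Ier2, Egr2 and Ccn2). Of these, Ccn2 was lower at 3 h in CA3 (-3.36). Fos stood at 1.65 in CA3 and 0.26 in CA1, a difference of 1.40 ± 0.49.

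The genes with the largest t for the difference between the fields were named by rule and did not pass. Cd93, a receptor of endothelial and myeloid cells, read 6.04 and 4.84 in CA3 at 3 h, against 6.07 and 7.84 in CA3 at T0. In CA1 it read 4.24 and 4.76 at 3 h, against 7.75 and 8.69 at T0, which made the CA3 difference higher by 2.20 ± 0.53. Its other probe set, with a low signal, gave 0.10 in CA3. Pimreg, a mitosis gene, was lower in both fields, at -1.47 in CA3 and -2.72 in CA1. The cyclin Ccnd2, the serotonin receptor Htr5b and Mdm1 also had a difference higher in CA3, by 1.44 ± 0.37, 1.81 ± 0.45 and 1.21 ± 0.31. On the other side stood Scg5, a chaperone of prohormone convertase 2 (-2.06 ± 0.57), Rprml (-2.0 ± 0.44), Tekt1, a protein of ciliary microtubules (-1.40 ± 0.34), Ext1, an enzyme of heparan sulfate synthesis (-1.36 ± 0.32), and Slc4a3, an anion exchanger (-1.18 ± 0.32). Scg5 is a neuronal gene and followed the neuron markers, with 7.77 and 9.84 in CA3 at 3 h, against 10.03 and 7.84 in CA3 at T0.

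**Figure D4:**
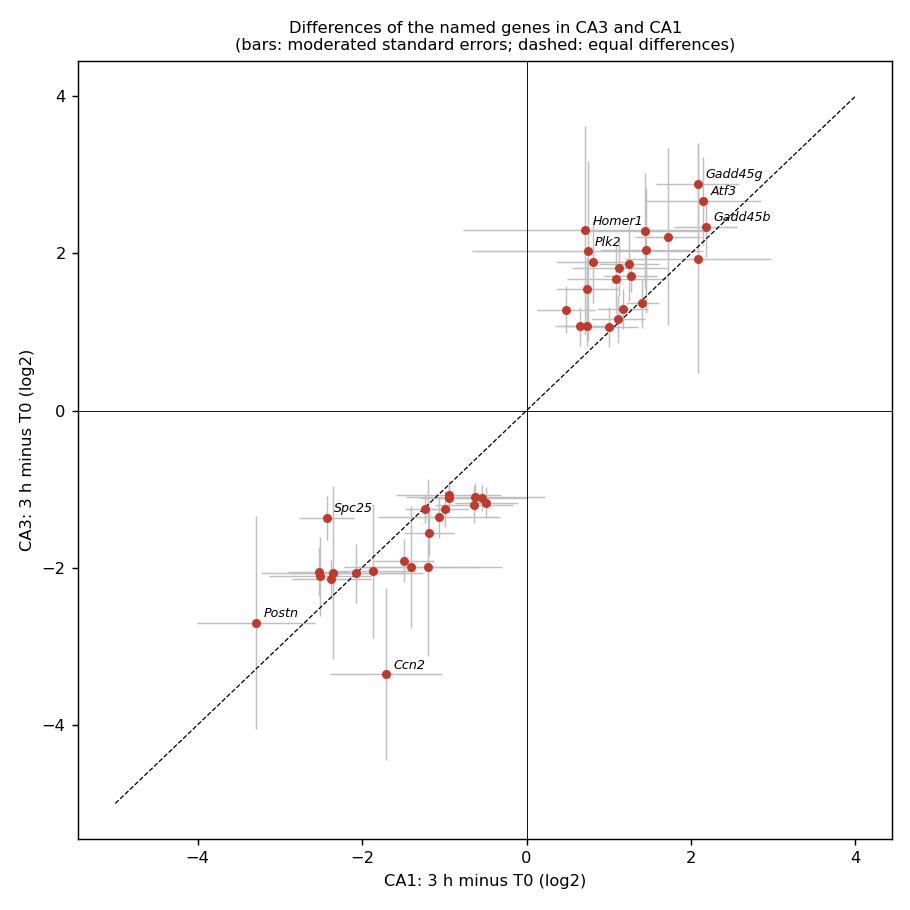
Difference between 3 h and T0 (log2) of the 44 genes named by t or size in CA3, in CA3 (vertical axis) against CA1 (horizontal axis), with moderated standard errors as bars and equal differences as a dashed line. The genes were chosen on the CA3 values, so the spread along the vertical axis is fixed by the choice, and paired arrays of the fields deviate together, so the position in CA1 is no separate support. In CA1 the values run between -3.29 (Postn) and 2.18 (Gadd45b).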

How the data were processed

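The authors deposited log2 values for each probe set on each array, made with RMA per the submitters' processing notes (version not given in the sources used here). RMA usually equalises probe signals between arrays, so differences are relative to the other genes; the deposited array medians still range over 5.81 to 5.94. The number of arrays limits the precision. Of 15923 probe sets, 57 controls were set aside. The platform annotation gave 1 gene for 12783 of the rest, several for 312 and none for 2771; 12748 matched the RefSeq table of GRCr8 by Entrez identifier, which changed 0 symbols. Each of 10411 genes was represented by its brightest probe set on average over the 16 arrays (1868 have several). Values of other probe sets are given for some of the named genes only.

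Limma 3.58.1 (R 4.3.3) fitted the 8 CA3 arrays as 4 groups of 2, with 4 residual degrees of freedom and a prior worth 2.43, and Benjamini-Hochberg adjustment over 15866 probe sets at 0.05. The difference between fields was fitted on 8 pair differences. The fit was tested on simulated data with known differences. Named genes were the 15 with the largest t and the 10 with the largest size in each direction, among genes with a CA3 mean of at least 5, a size of at least 1 and no overlap; 5 each way for the fields; and list members with extreme values or defining roles. Of 754 genes on 37 lists, 620 were measured. Members and lists were chosen with earlier results of these data known. Replicate numbers were not taken as pairs: deviations of the 3 h and T0 arrays correlated at -0.047. Alternatives changed scaling, arrays, blocks, filter and prior; those with 1 array of a group alone were added after the data were seen.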

Additional observations from a re-analysis of the deposited data

How the results depend on the processing

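No probe set passed at 3 h in CA3 under any of the 14 alternatives, with a smallest adjusted p between 0.242 (without the first T0 array) and 1 (without the second). At an unadjusted p under 0.05, 713 probe sets became 1200 with the replicate block, 1188 with the GAPDH difference as a covariate and 442 with low values left out, where 10414 probe sets were tested. For the difference between the fields, 281 became 55 with no pairing and 173 with low values left out (10406 tested), and leaving out 1 array gave 208 to 1232. Leaving out 1 array gave 0 to 1 passing probe sets for the fields. The 1, without the first CA3 T0 array, is annotated to several globin genes (adjusted p = 0.0447), and the remaining T0 array is the one with the high globin signal. The replicate block changed no call. Same-numbered CA3 arrays deviated together at 30 min, 3 h and 12 h (correlations of 0.643, 0.556 and 0.509), but those of T0 did not follow them (-0.236, -0.047 and 0.024), so the numbers were not taken as pairs. For the 44 genes named by t or size, leaving out an array could not turn the direction, since they were chosen without overlap.

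The alternatives were run for 133 named genes, which include these 44. Of the 133, 14 turned direction under some alternative, all of them list genes outside the 44. The remaining list genes were not checked in this way. Leaving out 1 array gave -0.039 to 0.13 for Bok, -0.56 to 0.43 for Cat, -0.31 to 0.16 for Cx3cr1, -1.07 to 2.25 for Egr1, -0.37 to 0.69 for Gadd45a, -0.72 to 0.17 for Gfap and -0.83 to 3.05 for Gria1. It gave -0.15 to 0.48 for Itgam, -0.69 to 0.56 for Nqo1, -0.54 to 2.69 for Rbfox3 (1.07 with all arrays), -1.41 to 1.10 for Slc17a7, -1.69 to 1.84 for Snap25, -0.43 to 0.086 for Sod1 and -1.44 to 0.46 for Stmn2 (-0.49 with all arrays). The GAPDH covariate gave 0.027 for Cat, 0.075 for Cx3cr1, -0.13 for Egr1, -0.12 for Gadd45a and -0.1 for Snap25. Cyclic loess gave 0.13 for Cat, 0.055 for Gfap, 0.18 for Nqo1 and 0.093 for Sod1, and quantile normalization 0.043 for Cat and 0.13 for Nqo1.

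List medians moved as follows. Cyclic loess gave 0.26 for the integrated stress response, 0.018 for endoplasmic reticulum chaperones, 0.10 for heat shock genes, -0.74 for DNA replication, -0.13 for ribosomal proteins and 0.029 for CA1 markers. Quantile normalization gave -0.027 for the chaperones, -0.74 for DNA replication and 0.026 for CA1 markers. With low values left out the medians were -1.33 for mitosis genes, 0.51 for glutamate receptors, 0.39 for potassium channels and 0.039 for CA1 markers. The GAPDH covariate gave -1.05 for mitosis genes, -0.66 for DNA replication and 0.026 for CA2 markers. Leaving out 1 array gave -1.45 to -0.97 for mitosis genes, -0.91 to -0.71 for DNA replication, -0.25 to 0.054 for heat shock genes, -0.66 to -0.10 for respiratory subunits, 0.15 to 0.25 for potassium channels, 0.053 to 0.27 for CA1 markers and -1.11 to 0.17 for oligodendrocyte precursor markers. The cause was not tested. The scalings moved the median of all probe sets from 0.05 to between 0.01 and 0.03. With 2 arrays a group, the size of a difference depends on single arrays, and probe sets near background bound low genes only loosely.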

Other observations

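Over all genes, 16% lay higher and 16.4% lower at 3 h without overlap. Lists not described above gave the following values at 3 h against T0 in CA3. Cell death genes had a median of -0.06 over 24 members, with 4 higher and 4 lower without overlap, and proteasome subunits -0.18 over 24, with 1 higher and 3 lower. Synaptic vesicle genes had a median of 0.31 over 18, with 2 higher and 0 lower. Inhibitory neuron markers had -0.13 over 10, with 1 higher and 3 lower. Markers of neighbouring neurons were near the median of all genes, with 0.10 over 7 for CA1, 0.20 over 6 for CA2 and 0.12 over 5 for dentate granule cells.

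Oligodendrocyte precursor markers had a median of -0.53 over 4 genes, with 0 apart in either direction. Pdgfra, their growth factor receptor, read 9.64 and 9.01 at 3 h, against 9.34 and 10.79 at T0. Endothelial and mural cell markers had 0.16 over 11, with 1 higher and 0 lower, and their mean level was 4.95 and 4.40 at 3 h, against 4.43 and 4.58 at T0. Fibroblast, meningeal and choroid plexus markers had -0.15 over 12, with 1 higher and 3 lower, and averaged 5.56 and 4.81 at 3 h, against 5.11 and 5.9 at T0, highest on the T0 array with the high globin and matrix signals. On the first 3 h array alone, 9 of the 11 endothelial and mural markers and 6 of the 12 fibroblast markers lay above both T0 arrays, where 37.9% of all genes did.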
